A study of Mus musculus with 12 samples.

Results

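The genes described here are 10 members of the vascular endothelial growth factor (VEGF) and angiopoietin signalling system, found by their symbols among the 24422 features of the count tables. They comprise 4 ligands (Vegfa, Vegfb, Vegfc and Pgf), 3 receptor tyrosine kinases (Kdr, Flt1 and Flt4), the co-receptor Nrp1, and the ligands Angpt1 and Angpt2. All 10 were found in every table and all 10 were among the 16713 genes kept for testing. VEGF ligands bind receptor kinases on endothelial cells and drive the growth, permeability and survival of blood and lymphatic vessels. Angiopoietins act on the endothelial receptor Tek, with Angpt1 stabilising vessels and Angpt2 opposing it in many settings. In adipose tissue both systems shape the capillary bed as fat expands.

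Poly-A RNA came from mouse adipose stromal vascular fraction, the mixed vascular, immune and precursor cells left after mature adipocytes are removed. Every mouse was heterozygous for a cassette knocked in at the p21 (Cdkn1a) locus, so all groups, controls included, kept 1 unmodified p21 allele and expressed the cassette wherever the p21 promoter was active. The 4 groups of 3 libraries were p21+/mcherry mice on a standard diet (SD mCherry), p21+/mcherry mice on a high-fat diet (HFD mCherry), p21+/mcherry-Tert mice on a high-fat diet (HFD Tert), and p21+/mcherry-TertCi mice on a high-fat diet (HFD TertCi). Tert is the catalytic subunit of telomerase, and TertCi is its catalytically inactive form. The series' design text describes the HFD control as p21+/- whereas its labels name mCherry, and the labels were followed. No label gives age, sex or fat depot, and none says whether the 3 libraries of a group came from separate animals, so p-values measure the spread between these libraries. There was no knock-in group on the standard diet, so Tert and TertCi could be compared with mCherry only under the high-fat diet.

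Libraries held 16430330 to 19486965 counts, and the 10 genes were covered by 130 to 8798 counts per library. The added mCherry_Tert feature had 0 counts in the 6 mCherry libraries and 33 to 86 in the 6 knock-in libraries, matching the labels. Levels are CPM, counts per 1000000 counts, on library sizes scaled by the trimmed mean of M-values (TMM). Unless an SE is named, ± gives the standard deviation over the 3 libraries of a group. The 10 blood endothelial markers (Pecam1, Cdh5 and others) were all present, with a summed level of 1172 to 1600 CPM in SD mCherry, 1878 to 3605 in HFD mCherry, then 2786 to 6203 in HFD Tert and 2810 to 6738 in HFD TertCi. Adipocyte markers were low throughout, with a summed level of 11.5 to 47.1 CPM over 6 genes. Epididymal and epithelial transcripts were abundant in some libraries of every group, with a summed level over 7 genes of 3989 to 54238 CPM in SD mCherry, 231 to 8490 in HFD mCherry, then 56.2 to 21679 in HFD Tert and 192 to 33802 in HFD TertCi. Of the 7 genes, all but Lcn5 had their highest mean in SD mCherry. Epcam was at 331 to 543 CPM there. It was at 11.1 to 289 CPM in HFD mCherry, 3.23 to 152 in HFD Tert and 20.9 to 270 in HFD TertCi. Such a separation of the diets was shared by 5.95% of all genes. The ranges of the other genes of this list overlapped between diets. The part of these transcripts in the diet differences below was not tested. Crisp1, an epididymal secretory gene, was under 1 CPM in 1 library of each group, namely SD mCherry 2, HFD mCherry 20, then HFD Tert 27 and HFD TertCi 31. In such bulk samples, fewer cells of a type and less RNA per cell cannot be told apart.

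Flt1 and Nrp1 were above the standard-diet range in 9 and 8 of the 9 high-fat diet libraries, whereas Kdr, which shares the ligand Vegfa with both, overlapped in all groups. For that reason the 250 bases before the RefSeq start site of each are shown, with those of Vegfa itself (build GRCm38.p6, the patch release of mm10, 5′ to 3′ on the gene's strand). Capitals mark the GC box core GGGCGG (reverse complement CCGCCC), the ETS factor core AGGAAG (reverse complement CTTCCT) and the hypoxia response core ACGTG (reverse complement CACGT), and no 2 of these motifs overlap in the windows shown. The windows lie at chr5:147726012-147726261 on the minus strand for Flt1, chr8:128358823-128359072 on the plus strand for Nrp1, chr5:75978456-75978705 on the minus strand for Kdr and chr17:46032378-46032627 on the minus strand for Vegfa.
Flt1: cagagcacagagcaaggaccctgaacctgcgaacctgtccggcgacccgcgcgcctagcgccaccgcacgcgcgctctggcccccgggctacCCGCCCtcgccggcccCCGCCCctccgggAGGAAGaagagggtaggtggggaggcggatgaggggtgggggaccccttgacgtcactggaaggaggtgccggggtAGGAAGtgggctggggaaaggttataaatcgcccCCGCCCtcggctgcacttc
Nrp1: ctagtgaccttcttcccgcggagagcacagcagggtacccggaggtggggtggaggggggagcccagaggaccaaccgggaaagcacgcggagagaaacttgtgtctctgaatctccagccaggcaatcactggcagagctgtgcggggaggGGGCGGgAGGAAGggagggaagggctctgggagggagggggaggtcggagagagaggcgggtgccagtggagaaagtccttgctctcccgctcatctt
Kdr: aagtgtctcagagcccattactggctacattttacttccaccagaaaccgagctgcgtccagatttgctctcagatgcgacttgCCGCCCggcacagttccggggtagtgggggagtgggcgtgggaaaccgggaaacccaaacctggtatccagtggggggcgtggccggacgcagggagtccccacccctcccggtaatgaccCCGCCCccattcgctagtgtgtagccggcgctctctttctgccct
Vegfa: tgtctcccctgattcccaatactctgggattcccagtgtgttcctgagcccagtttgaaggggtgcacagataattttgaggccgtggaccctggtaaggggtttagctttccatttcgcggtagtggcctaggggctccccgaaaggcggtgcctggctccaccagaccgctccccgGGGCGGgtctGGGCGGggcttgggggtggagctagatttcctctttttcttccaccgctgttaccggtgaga
The Flt1 window held 3 GC boxes and 2 AGGAAG motifs and the Nrp1 window 1 of each. Those of Kdr and Vegfa held 2 GC boxes apiece and 0 exact AGGAAG motifs, which leaves other forms of an ETS site uncounted. Of the 8 members with a RefSeq promoter entry (all but Angpt1 and Angpt2), 8 held a GC box, 2 held AGGAAG and 0 held ACGTG in the first-listed window. Among 32851 RefSeq promoter windows of 250 bases, searched on both strands, 32.7% held a GC box, 29.5% AGGAAG and 16.6% ACGTG. A second Vegfa start site, with its window at chr17:46025164-46025413, held 1 ACGTG core. These letter matches describe the windows only.

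In the comparison of diets in the mCherry genotype, 7 of the 10 genes were higher in HFD mCherry and 3 lower. The median log2 fold change of the 10 was 0.27, against -0.08 over all genes tested. With edgeR's quasi-likelihood test and Benjamini-Hochberg adjustment over 16713 genes, 0 of the 10 passed an adjusted p of 0.05, a threshold that 0.0479% of all genes passed. Unadjusted p was under 0.05 for 4 of the 10 (Flt1, Nrp1, Angpt1 and Vegfb), and for 24.1% of all genes. DESeq2 called 2 of the 10, Flt1 and Angpt1, where it called 13.3% of all genes, and limma-voom called 0. The libraries of the groups did not overlap for 3 of the 10 (Flt1 and Angpt2 higher, Vegfb lower), a property of 25.5% of all genes.

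The most separated member was Flt1, which encodes VEGFR1, a receptor that binds Vegfa tightly, signals weakly and is also made in a soluble form that traps ligand. It lies on mm10 chromosome 5 at 147561604 to 147726011, minus strand, with 13504 bases of exon in GENCODE M21. In SD mCherry it stood at 58.8, 50.5 and 51.8 CPM, and in HFD mCherry at 118, 182 and 199 CPM. HFD Tert libraries had 104, 118 and 197 CPM, and HFD TertCi libraries 94.8, 205 and 157 CPM. Every one of the 9 high-fat diet libraries was above every standard-diet library, a separation shared by Angpt2 and by 5.95% of all genes. Flt1 was 3.10-fold higher in HFD mCherry than in SD mCherry (log2 1.63, SE 0.34), with an edgeR adjusted p of 0.0659 and a DESeq2 adjusted p of 0.000579. Over 22 alternative analyses the adjusted p ranged from 0.000579 to 0.261 and was under 0.05 in 5. Among these were the edgeR fits without HFD mCherry 15 (log2 1.83, adjusted p = 0.0138) and without HFD Tert 27 (log2 1.63, adjusted p = 0.0289), which called 12.2% and 4% of all genes, compared with 0.0479% in the fit of all 12 libraries. The fold was 2.60 (log2 1.38, SE 0.33) for HFD Tert and 2.83 (log2 1.503, SE 0.34) for HFD TertCi against SD mCherry. Their edgeR adjusted p-values were 0.169 and 0.243, and those of DESeq2 were 0.00687 and 0.00564, the lowest of ranges that reached 0.778 and 0.988 over 22 alternatives. Between the knock-in groups and HFD mCherry, Flt1 differed by a log2 of -0.25 (SE 0.33) for Tert and -0.13 (SE 0.33) for TertCi, less than the spread of the libraries. The group accounted for 76.7% of the variance of its log2 CPM over the 12 libraries, compared with 19.9% to 55.0% for the other 9 members. With 3 libraries a group, part of any gene's variance falls between groups without a difference among them. The same share was not computed over all genes.

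**Figure D1:**
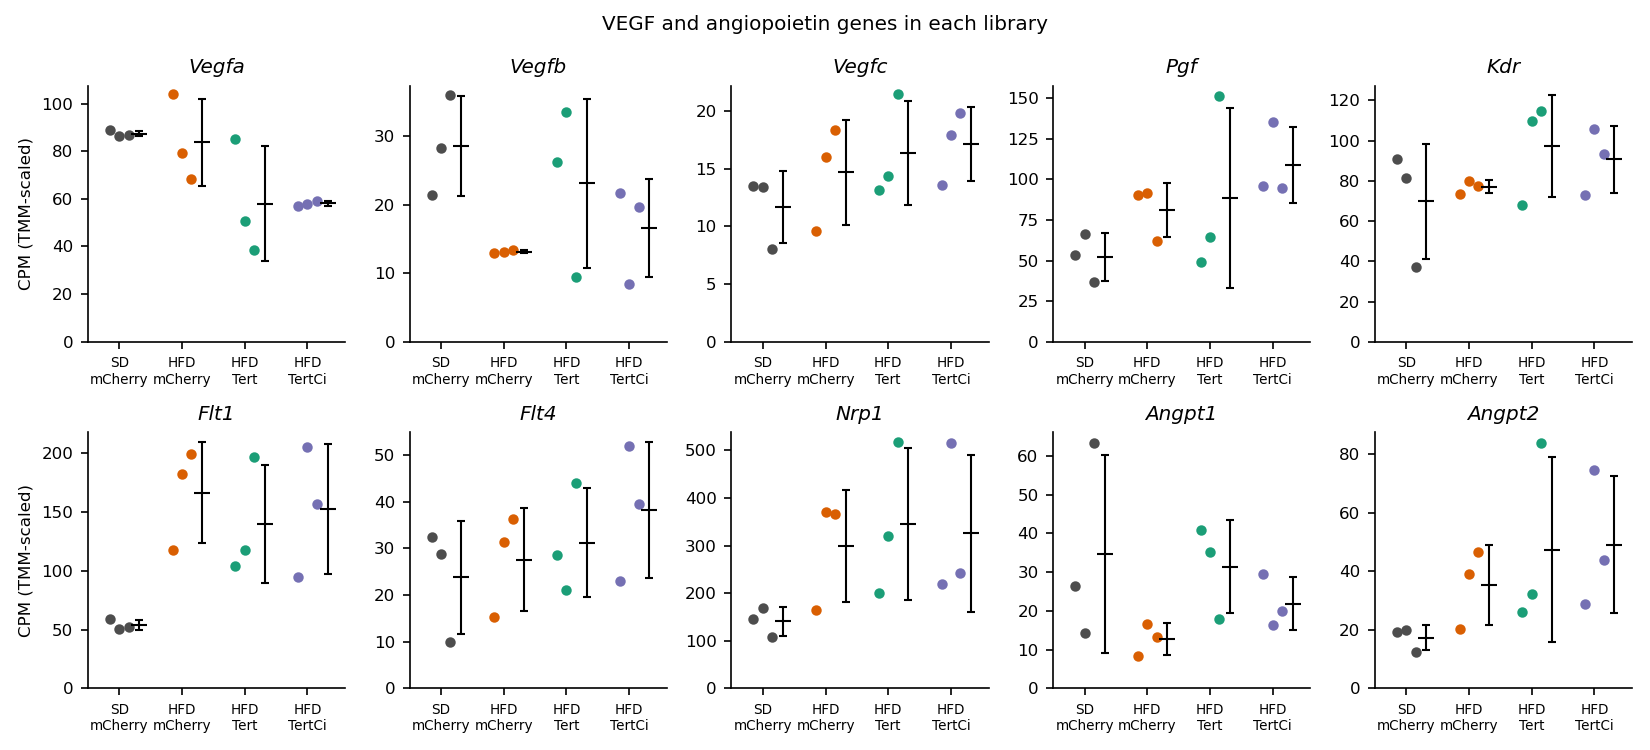
CPM of each of the 10 genes by group, with 1 point per library and, beside them, the mean and standard deviation of the 3 libraries; every vertical axis starts at 0 and has its own scale. All 9 high-fat diet points of Flt1 (94.8 to 205 CPM) lie above the 3 standard-diet points (50.5 to 58.8 CPM), the 3 HFD mCherry points of Vegfb sit together near 13 CPM, and Kdr overlaps in all groups.

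Kdr encodes VEGFR2, the main signalling receptor for Vegfa on blood endothelium. It lies on chromosome 5 at 75932827 to 75978458, minus strand. Its level was 90.9, 81.4 and 37.2 CPM in SD mCherry, 73.6, 80.0 and 77.4 in HFD mCherry, then 68.2, 110 and 115 in HFD Tert, and 73.0, 106 and 93.5 in HFD TertCi. SD mCherry 3 was the lowest library and all group ranges overlapped. The diet difference was a log2 of 0.14 (SE 0.32), and without SD mCherry 3 it was -0.16. Against HFD mCherry, Kdr differed by 0.34 (SE 0.32) in HFD Tert and 0.24 (SE 0.32) in HFD TertCi on the log2 scale, with edgeR adjusted p-values of 0.608 and 0.759. The ratio of Flt1 to Kdr CPM was 0.646, 0.621 and 1.39 in the SD mCherry libraries and 1.598, 2.28 and 2.57 in HFD mCherry. In HFD Tert it was 1.53, 1.07 and 1.72, and in HFD TertCi 1.30, 1.94 and 1.68. HFD mCherry was thus above SD mCherry in 3 of 3 libraries, whereas both knock-in groups overlapped SD mCherry at its library 3, the one with little Kdr. Flt1 alone also separated the mCherry groups, as did 25.5% of all genes. How many gene pairs have a ratio that separates them was not counted.

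Flt4 encodes VEGFR3, the receptor for Vegfc that is best known from lymphatic endothelium. Its level was 32.5, 28.9 and 9.96 CPM in SD mCherry, 15.2, 31.3 and 36.3 in HFD mCherry, then 28.5, 21.03 and 44.0 in HFD Tert, and 23.1, 52.0 and 39.5 in HFD TertCi. The ranges of all 4 groups overlapped, and Flt4 varied more within groups than between them. Over the 12 libraries its log2 CPM had a Pearson correlation of 0.92 with the mean of 6 lymphatic markers and of 0.68 with that of the 10 blood endothelial markers. These correlations describe libraries that share their group and their scaling.

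Nrp1 encodes neuropilin-1, a co-receptor that strengthens binding of Vegfa to Kdr and also binds semaphorins. It lies on chromosome 8 at 128358604 to 128503363, plus strand, and contains the microRNA gene Mir1903 on the same strand (80 bases shared). It stood at 145, 168 and 108 CPM in SD mCherry and 164, 370 and 366 CPM in HFD mCherry. The knock-in libraries had 201, 320 and 517 CPM (HFD Tert) and 218, 516 and 242 CPM (HFD TertCi). HFD mCherry 15 lay within the standard-diet range, and the other 8 high-fat diet libraries were above it. The fold against SD mCherry was 2.14 (log2 1.09, SE 0.45) in HFD mCherry, 2.46 (log2 1.30, SE 0.46) in HFD Tert and 2.32 (log2 1.21, SE 0.46) in HFD TertCi. The edgeR adjusted p-values were 0.183, 0.221 and 0.273. Without HFD Tert 27 the second of these log2 values was 0.89, and without HFD TertCi 31 the third was 0.71.

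Among the ligands, Vegfa, the principal angiogenic factor, had its lowest mean levels in the knock-in groups. The gene lies on chromosome 17 at 46016993 to 46032369, minus strand. SD mCherry libraries had 88.7, 86.5 and 86.9 CPM, HFD mCherry libraries 104, 79.1 and 68.3, HFD Tert libraries 84.9, 50.6 and 38.4, and HFD TertCi libraries 57.2, 57.8 and 59.2. All 3 HFD TertCi values were below all values of both mCherry groups, and HFD Tert overlapped HFD mCherry through its library 25. The diet difference was a log2 of -0.06 (SE 0.27). Against HFD mCherry the log2 difference was -0.53 (SE 0.27) in both knock-in groups, a 1.44-fold lower level, with edgeR adjusted p-values of 0.345 for Tert and 0.393 for TertCi. Against SD mCherry it was -0.59 (SE 0.27) in both, with edgeR adjusted p-values of 0.315 and 0.342 and no overlap of the libraries. The difference from HFD mCherry for Tert was -0.91 without HFD Tert 25 and -0.30 without HFD Tert 27. For TertCi it was -0.34 without HFD mCherry 15.

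Vegfb, a ligand of Flt1 and Nrp1 that does not bind Kdr, lies on chromosome 19 at 6982473 to 6987651, minus strand. It had 21.4, 28.3 and 35.9 CPM in SD mCherry and 12.9, 13.1 and 13.3 CPM in HFD mCherry, with no overlap. HFD Tert libraries ranged widely at 26.3, 33.5 and 9.52 CPM, as did HFD TertCi libraries at 21.6, 8.37 and 19.7 CPM. The lowest values were those of HFD Tert 27 and HFD TertCi 31, both with Crisp1 under 1 CPM. The other libraries with Crisp1 under 1 CPM were the middle one of SD mCherry (28.3 CPM of Vegfb in library 2) and the highest of HFD mCherry (13.3 CPM in library 20). The part of the epididymal transcripts in these values was not tested. Vegfb was 2.17-fold lower in HFD mCherry than in SD mCherry (log2 -1.12, SE 0.46, edgeR adjusted p = 0.177).

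Pgf, placental growth factor, is a further ligand of Flt1 that does not bind Kdr, and lies on chromosome 12 at 85166635 to 85177790, minus strand. Its level was 53.3, 66.1 and 37.1 CPM in SD mCherry, 90.3, 91.3 and 61.9 in HFD mCherry, then 48.9, 64.8 and 152 in HFD Tert, and 96.2, 136 and 94.7 in HFD TertCi. HFD TertCi was above both mCherry groups without overlap, and HFD Tert overlapped every group. The log2 difference for TertCi was 1.06 (SE 0.40) from SD mCherry and 0.42 (SE 0.39) from HFD mCherry, with edgeR adjusted p-values of 0.273 and 0.643. The ratio of Pgf to Vegfa CPM was 0.427 to 0.765 in SD mCherry, 0.869 to 1.16 in HFD mCherry, 0.576 to 3.95 in HFD Tert and 1.599 to 2.35 in HFD TertCi.

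Vegfc, the ligand of Flt4 and Kdr that drives lymphatic growth, had 8.05 to 21.5 CPM over the 12 libraries. SD mCherry libraries had 13.5, 13.4 and 8.05 CPM, HFD mCherry libraries 9.61, 16.1 and 18.4, HFD Tert libraries 13.2, 14.4 and 21.5, and HFD TertCi libraries 13.6, 18.0 and 19.8. HFD TertCi lay above SD mCherry, though its lowest library exceeded the highest SD mCherry library by less than 1 CPM (log2 0.55, SE 0.33, edgeR adjusted p = 0.459). The other group ranges overlapped.

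Angpt1, the Tek agonist made mainly by perivascular and mesenchymal cells, lies on chromosome 15 at 42424723 to 42676977, minus strand. It overlaps an antisense gene, Gm17473, by 737 exonic bases, and since the use of strand in counting is not given in the sources used here, reads of the pair could not be told apart. It had 26.4, 14.2 and 63.3 CPM in SD mCherry, 8.34, 16.5 and 13.3 in HFD mCherry, then 41.0, 35.3 and 17.9 in HFD Tert, and 29.4, 16.2 and 19.9 in HFD TertCi. SD mCherry 3 was the highest library and SD mCherry 2 lay within the HFD mCherry range, whereas all HFD Tert libraries were above all HFD mCherry libraries. It was 2.72-fold lower in HFD mCherry than in SD mCherry (log2 -1.44, SE 0.53), with an adjusted p of 0.146 by edgeR and 0.0485 by DESeq2, in a range of 0.0485 to 0.606 over 22 alternatives. Without SD mCherry 3 the log2 difference was -0.67. In HFD Tert it was 2.47-fold higher than in HFD mCherry (log2 1.30, SE 0.53, edgeR adjusted p = 0.268). The pericyte and smooth muscle list, whose mean log2 CPM had a Pearson correlation of 0.69 with Angpt1 over the 12 libraries, was at 6.67 ± 0.47 in SD mCherry, 6.56 ± 0.32 in HFD mCherry, then 7.34 ± 0.54 in HFD Tert and 7.14 ± 0.33 in HFD TertCi. Between diets this mean hides differences of both signs, with 5 of the 10 genes higher in HFD mCherry and 5 lower. Unadjusted p was under 0.05 for 7 of them (24.1% of all genes), and edgeR called 0. Myh11 was at 2480 ± 2344 CPM in SD mCherry and 439 ± 232 in HFD mCherry, whereas Pdgfrb was at 57.5 ± 8.94 and 198 ± 85.4. The part of this list in the Angpt1 differences was not tested.

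Angpt2, which endothelial cells release and which competes with Angpt1 for Tek, lies on chromosome 8 at 18690263 to 18741562, minus strand, within Mcph1 on the other strand but with 0 shared exonic bases. Its level was 19.4, 20.03 and 12.6 CPM in SD mCherry, 20.3, 39.0 and 46.6 in HFD mCherry, then 26.1, 32.3 and 83.9 in HFD Tert, and 29.0, 74.6 and 43.8 in HFD TertCi. All 9 high-fat diet libraries were above all 3 standard-diet libraries, with HFD mCherry 15 and SD mCherry 2 less than 1 CPM apart. The fold against SD mCherry was 2.04 (log2 1.03, SE 0.50) in HFD mCherry, 2.74 (log2 1.45, SE 0.50) in HFD Tert and 2.83 (log2 1.502, SE 0.51) in HFD TertCi. The edgeR adjusted p-values were 0.233, 0.217 and 0.246. Without HFD Tert 27 the HFD Tert log2 difference was 0.75, and without HFD TertCi 31 the HFD TertCi difference was 1.07. The ratio of Angpt2 to Angpt1 CPM was 0.734, 1.41 and 0.199 in SD mCherry and 2.44, 2.36 and 3.50 in HFD mCherry. It was 0.638, 0.915 and 4.69 in HFD Tert and 0.986, 4.60 and 2.19 in HFD TertCi. HFD mCherry was above SD mCherry in all libraries, and the knock-in groups spanned both. Angpt2 alone also separated the mCherry groups, as did 25.5% of all genes, and the share of gene pairs whose ratio separates them was not counted.

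**Figure D2:**
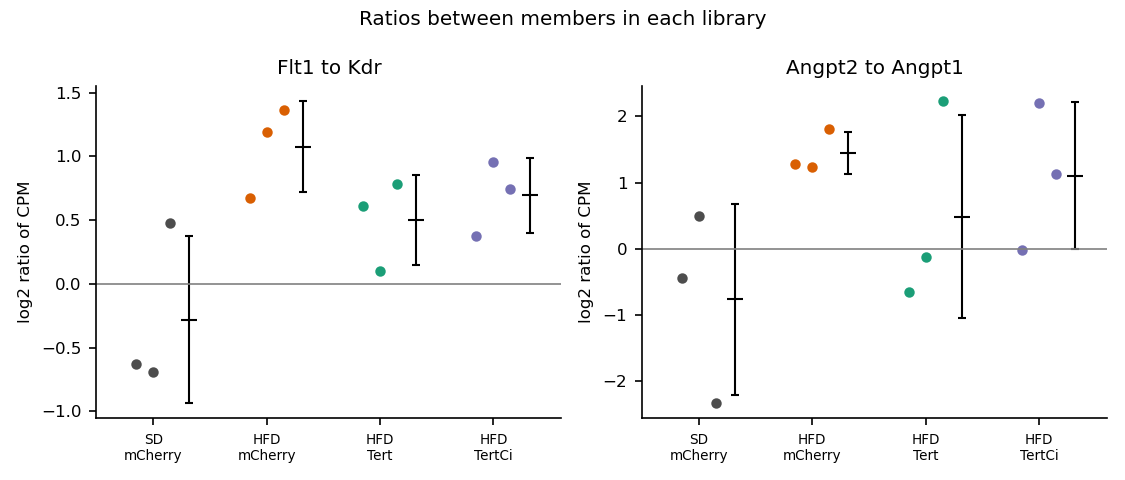
Log2 ratio of Flt1 to Kdr CPM (left) and of Angpt2 to Angpt1 CPM (right) in each library, with the mean and standard deviation of each group of 3; the line at 0 marks equal CPM. The Flt1 to Kdr mean was -0.28 in SD mCherry and 1.08 in HFD mCherry, and the Angpt2 to Angpt1 mean was -0.76 and 1.44, while the HFD Tert and HFD TertCi points are spread between or beyond these.

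Across the other comparisons, edgeR called 0 of the 10 genes. For HFD Tert against HFD mCherry, 8 genes were higher and 2 lower, with a median log2 fold change of 0.19 (all genes -0.05). Unadjusted p was under 0.05 for 1 of the 10 (Angpt1) and 16.4% of all genes, and the libraries of 1, again Angpt1, did not overlap, beside 21.8% of all genes, with 0 (0%) of the 16713 genes called. For HFD TertCi against HFD mCherry, 8 were higher and 2 lower with a median of 0.29 (all genes -0.04), 0 had an unadjusted p under 0.05 (14.7% of all genes), and 2 did not overlap (Pgf higher, Vegfa lower), beside 21.6% of all genes and 0.012% called. DESeq2 and limma-voom called 0 of the 10 in both comparisons, where DESeq2 called 5.12% of all genes for Tert and 4.3% for TertCi. Active and inactive Tert were compared directly as well. There, 4 genes were higher in HFD Tert and 6 lower, with a median of -0.03 (all genes -0.01), 0 had an unadjusted p under 0.05 (1.36% of all genes), and DESeq2 (0.0544% of all genes called) and limma-voom called 0. For 0 of the 10 did the HFD Tert and HFD TertCi libraries separate, where 5.41% of all genes did, and edgeR called 0% of all genes.

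Against SD mCherry, which differs from the knock-in groups in both diet and genotype, 4 genes had an unadjusted p under 0.05 in each comparison, beside 15.8% of all genes for HFD Tert and 14.7% for HFD TertCi, and edgeR called 0% of all genes in either. These were Flt1, Nrp1, Angpt2 and Vegfa for HFD Tert, and Flt1, Nrp1, Angpt2 and Pgf for HFD TertCi. No overlap was seen for 4 of the 10 in HFD Tert (Flt1, Nrp1 and Angpt2 higher, Vegfa lower; 23.3% of all genes) and for 6 in HFD TertCi (also Vegfc and Pgf higher; 20.3% of all genes). DESeq2 called Flt1 alone of the 10 in each (5.84% and 4.68% of all genes), and limma-voom called 0. The F-test over the 4 groups had an unadjusted p under 0.05 for 1 member, Flt1 (20.2% of all genes), with an edgeR adjusted p of 0.126 and 0.012% of all genes called. The DESeq2 likelihood ratio test called Flt1 alone of the 10, beside 14.5% of all genes. These comparisons share their SD mCherry or HFD mCherry libraries and are not independent of one another.

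**Figure D3:**
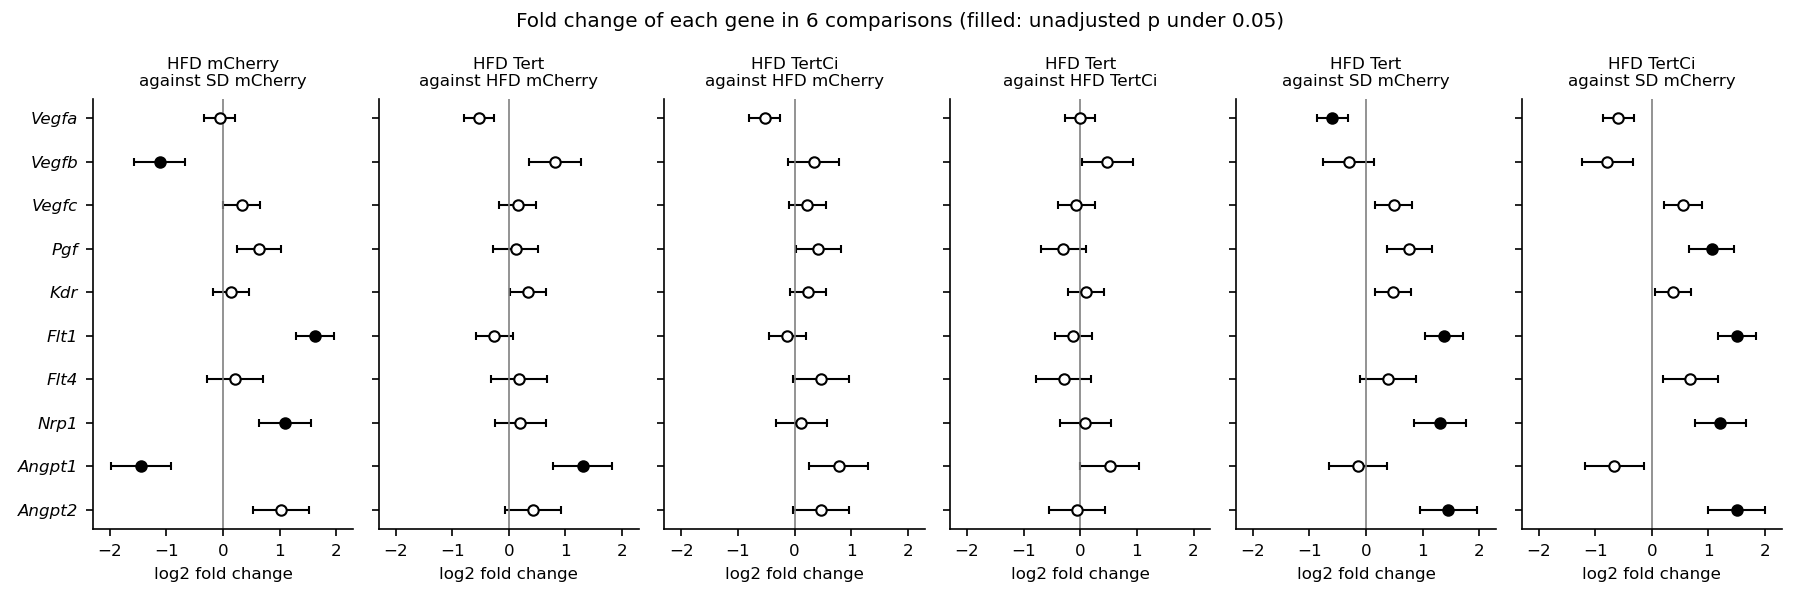
Log2 fold change (point) and SE (bar) of the 10 genes from the edgeR fit in 6 comparisons; filled points have an unadjusted p under 0.05 and no point passed the adjusted threshold. Flt1, Nrp1 and Angpt2 lie right of 0 in the 3 comparisons with SD mCherry (Flt1 1.38 to 1.63), Vegfa lies left of 0 for both knock-in groups, and Tert against TertCi holds no filled point.

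Endothelial markers themselves differed among the groups, so the receptor genes were also set against them. The mean log2 CPM of the 10 blood endothelial markers was 6.67 ± 0.19 in SD mCherry, 7.51 ± 0.52 in HFD mCherry, then 8.17 ± 0.57 in HFD Tert and 8.18 ± 0.66 in HFD TertCi. The 2 highest libraries were HFD Tert 27 (8.78) and HFD TertCi 31 (8.89), which also had the highest Angpt2 and Nrp1. Of the 10 markers, 9 were higher in HFD mCherry than in SD mCherry, and 10 were higher in each knock-in group than in HFD mCherry, with 0 called by edgeR. Unadjusted p was under 0.05 for 5 of the 10 markers between diets (24.1% of all genes), 3 for Tert (16.4%) and 3 for TertCi (14.7%). DESeq2 called 2 of the markers between diets, 0 for Tert and 1 for TertCi, beside 13.3%, 5.12% and 4.3% of all genes. Angpt2 followed this mean most closely over the 12 libraries (Pearson r = 0.95), then Nrp1 (0.93) and Flt1 (0.85), whereas Kdr had 0.66 and Vegfa -0.82. With the mean of the 7 epididymal and epithelial genes, r was -0.77 for Angpt2, -0.79 for Nrp1 and -0.59 for Flt1. It was -0.47 for Kdr and 0.50 for Vegfa. The part of either cell content in the levels of these genes was not tested. These values describe 12 libraries of 4 groups that differ in the markers, and carry no test.

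Relative to the endothelial markers, Flt1 was highest in HFD mCherry. Its log2 CPM minus the marker mean was -0.66, -1.22 and -0.88 in SD mCherry and -0.03, -0.33 and -0.14 in HFD mCherry. In HFD Tert it was -0.95, -1.19 and -1.15, and in HFD TertCi -1.02, -1.21 and -0.78. The 3 HFD mCherry values were above all 9 others. How many of all genes share this separation was not counted, and shares are given below for pairs of groups only. Nrp1 was at 0.63 ± 0.16 in HFD mCherry, above HFD Tert (0.16 ± 0.14) and HFD TertCi (0.05 ± 0.18) without overlap, but it overlapped SD mCherry (0.44 ± 0.24). Angpt2 relative to the markers was at -2.58 ± 0.33, -2.45 ± 0.19, -2.79 ± 0.36 and -2.67 ± 0.06 in the order SD mCherry, HFD mCherry, then HFD Tert and last HFD TertCi. Vegfa was at -0.22 ± 0.20 in SD mCherry and -1.14 ± 0.81 in HFD mCherry, then -2.39 ± 1.14 in HFD Tert and -2.32 ± 0.65 in HFD TertCi.

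On this relative scale 4 of the 10 genes did not overlap between diets (Flt1 higher, Vegfb, Vegfc and Angpt1 lower), where 37.4% of all genes did not. Against HFD mCherry, 3 genes were lower without overlap in HFD Tert (Flt1, Nrp1 and Vegfc; 33.5% of all genes) and 4 in HFD TertCi (Flt1, Nrp1, Vegfa and Angpt2; 32.5%). Against SD mCherry, Vegfa, Vegfb and Vegfc were lower without overlap in both knock-in groups, as was Pgf in HFD Tert and Kdr in HFD TertCi. The share of all genes was not counted for the comparisons of knock-in groups with SD mCherry. With the marker mean as a covariate in the edgeR fit, Flt1 was called in HFD Tert against HFD mCherry (log2 -0.78, adjusted p = 0.0232, range over 22 alternatives 0.0232 to 0.944), 1 of 10 genes beside 16.1% of all genes. Flt1 and Nrp1 were called in HFD TertCi against HFD mCherry, 2 of 10 beside 18.7% of all genes. The Flt1 log2 difference there was -0.67 with an adjusted p of 0.0339 in a range of 0.0339 to 0.994. The Nrp1 adjusted p was 0.0385 in a range of 0.0385 to 0.974. In the fit without the covariate Flt1 was not called in either comparison. Between diets, the fit with the covariate called 0 of the 10 genes and 0% of all genes. Macrophage markers were also highest in HFD mCherry, with a summed level over 6 genes of 1212 to 3275 CPM, against 327 to 546 in SD mCherry, then 265 to 1324 in HFD Tert and 370 to 699 in HFD TertCi. Their part in the Flt1 and Nrp1 values was not tested.

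**Figure D4:**
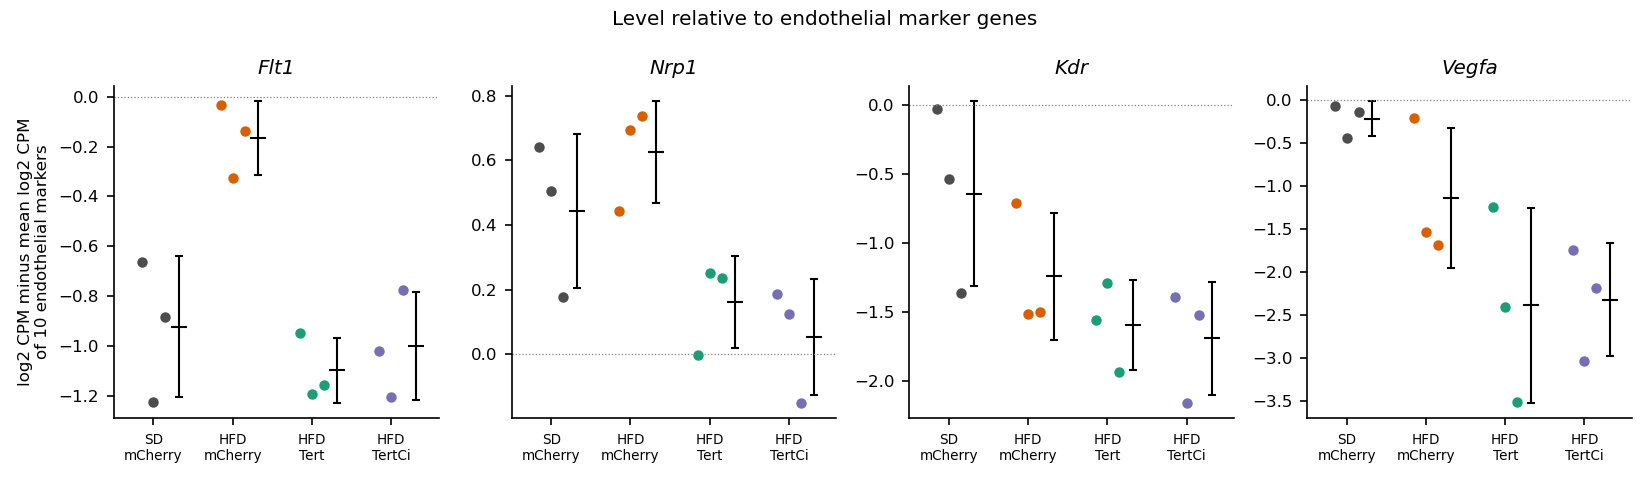
Log2 CPM of Flt1, Nrp1, Kdr and Vegfa minus the mean log2 CPM of 10 blood endothelial markers in each library, with group mean and standard deviation; the dotted line marks equality and each panel has its own scale. The 3 HFD mCherry points of Flt1 (-0.33 to -0.03) lie above all others, while Kdr is spread over each group and Vegfa averages -0.22 in SD mCherry and -2.39 and -2.32 in the knock-in groups.

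Levels of different genes were compared as CPM per kilobase of GENCODE M21 exon. Averaged over the 12 libraries, Pgf (28.5) and Nrp1 (28.4) were highest, followed by Vegfa (16.7), Vegfb (12.7), Angpt2 (10.1), Flt1 (9.48), Kdr (9.28), Vegfc (6.11), Angpt1 (4.83) and Flt4 (3.67). The ranges over the libraries of all neighbours in this order overlapped. The order pools groups with different means and did not hold in each of them. In SD mCherry, Vegfa had the highest mean (20.4 per kilobase), then Pgf (18.0), Vegfb (17.8) and Nrp1 (14.4). Flt1 and Kdr also ranked differently by group. Per kilobase, Flt1 had 3.98 ± 0.33 and Kdr 7.74 ± 3.17 in SD mCherry, and Flt1 had 12.3 ± 3.19 and Kdr 8.53 ± 0.36 in HFD mCherry. In the knock-in groups the means were close, at 10.3 and 10.8 in HFD Tert and 11.3 and 10.05 in HFD TertCi for Flt1 and Kdr.

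A further 37 genes of the pathway, in 5 lists, were examined in the same fit, and edgeR called 0 of them in any comparison. Between diets 17 of the 37 had an unadjusted p under 0.05, beside 24.1% of all genes. DESeq2 called 5 of the 37 there (Nrp2, Dok2 and Dll4 higher in HFD mCherry, Egln3 and Bnip3 lower), a share near the 13.3% of all genes that it called. Against HFD mCherry, 6 of the 37 had an unadjusted p under 0.05 in each knock-in group, near the 16.4% of all genes for Tert and 14.7% for TertCi. DESeq2 called 1 of the 37 for Tert and 2 for TertCi, also near its shares of all genes (5.12% and 4.3%). Against SD mCherry, 13 of the 37 had an unadjusted p under 0.05 in HFD Tert (15.8% of all genes) and 15 in HFD TertCi (14.7%). DESeq2 called 8 and 5 of the 37 in these comparisons, beside 5.84% and 4.68% of all genes. Of 6 other receptors and ligands, 5 had an unadjusted p under 0.05 between diets (24.1% of all genes), with a median log2 difference of 1.04 (all genes -0.08). Tie1, the orphan partner of Tek, was at 93.6 ± 5.91 CPM in SD mCherry, 194 ± 60.6 in HFD mCherry, then 266 ± 112 in HFD Tert and 277 ± 109 in HFD TertCi (edgeR F-test adjusted p = 0.144). Ptprb, an endothelial phosphatase that acts on Tek, was at 135 ± 43.6, 246 ± 87.1, 366 ± 131 and 359 ± 161 CPM in the same order (adjusted p = 0.201). Among 12 signal transducers, Nos3, the endothelial nitric oxide synthase, was at 44.3 ± 12.2, 89.4 ± 24.9, 155 ± 60.3 and 164 ± 95.7 CPM (adjusted p = 0.132). Plcg1, which Kdr activates, was instead highest in HFD mCherry at 60.8 ± 27.4 CPM, compared with 34.6 ± 12.9 in SD mCherry, then 30.4 ± 4.73 in HFD Tert and 28.3 ± 6.98 in HFD TertCi (adjusted p = 0.218). Tie1, Ptprb and Nos3 thus had their highest means in the knock-in groups, as the endothelial markers did.

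Of 5 genes known to respond to VEGF in endothelium, 5 had a positive fitted log2 difference from HFD mCherry for Tert, and 4 did for TertCi. In each comparison 1 of the 5 had an unadjusted p under 0.05 (16.4% and 14.7% of all genes). For Tert, 2 of the 5 differences were close to 0, with a log2 of 0.03 for Dll4 (SE 0.35) and 0.03 for the apelin receptor gene Aplnr (SE 0.40). Dll4, the Notch ligand of tip cells, was at 33.2 ± 5.16 CPM in SD mCherry, 88.0 ± 6.25 in HFD mCherry, then 89.6 ± 49.5 in HFD Tert and 98.0 ± 22.8 in HFD TertCi (edgeR F-test adjusted p = 0.133). Esm1, a secreted tip cell product, was at 16.1 ± 6.06, 19.7 ± 6.30, 56.5 ± 22.1 and 71.9 ± 57.7 CPM (adjusted p = 0.137). Dll4 did not overlap between the mCherry groups, as was the case for 25.5% of all genes, while Esm1 overlapped between diets.

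Hypoxia genes were examined because Vegfa is a known target of the hypoxia-inducible factors. Of 6 regulators, 3 were higher and 3 lower in HFD mCherry than in SD mCherry, and of 8 targets 2 were higher and 6 lower. Against HFD mCherry, 4 regulators were higher and 2 lower in each knock-in group. Of the targets 6 were higher and 2 lower for Tert, and 4 were higher and 4 lower for TertCi. In each of these comparisons 1 regulator and 1 target had an unadjusted p under 0.05 (16.4% of all genes for Tert and 14.7% for TertCi). Hif1a, the oxygen-regulated subunit itself, was at 215 ± 48.1 CPM in SD mCherry, 386 ± 146 in HFD mCherry, then 507 ± 51.3 in HFD Tert and 389 ± 162 in HFD TertCi (edgeR F-test adjusted p = 0.228). Egln3, a prolyl hydroxylase and itself a target, was lowest in HFD mCherry, at 14.2 ± 5.13 CPM against 37.6 ± 13.6, 45.2 ± 15.4 and 44.4 ± 5.31 in SD mCherry, HFD Tert and HFD TertCi (adjusted p = 0.127). The targets Bnip3, a mitophagy receptor, and Ankrd37 both had their highest mean in SD mCherry. Bnip3 was at 85.0 ± 27.4 CPM there and at 32.6 ± 19.97, 47.0 ± 16.9 and 38.5 ± 18.3 in HFD mCherry, HFD Tert and HFD TertCi (adjusted p = 0.250). Ankrd37 was at 9.47 ± 8.16 CPM in SD mCherry and at mean levels of 1.56 to 1.82 CPM in the others (adjusted p = 0.192). Its SD mCherry libraries ran from 0.695 to 16.8 CPM, the lowest of them below every high-fat diet library.

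Genes with the most similar pattern were ranked by the Pearson correlation of log2 CPM over the 12 libraries among 15303 genes averaging 1 CPM or more. For Angpt2 these were Tmem255b (0.98), Fli1 (0.98) and Plxnd1 (0.98), and for Angpt1 they were Nr2f1 (0.95), Kcna6 (0.95) and Tns1 (0.94). Flt4 was most like Bmp6 (0.95), followed by Ccl21c and Gm10591 (0.93 each), near-identical copies listed with the same counts. Kdr was most like Vnn1, Fam217a and C2 (0.93 each), and Vegfa most like Cnnm2 (0.91), Exo5 (0.90) and 5830417I10Rik (0.90). For Flt1, chosen after its values were seen, the genes were Sema6d, Il2rg and Ets1 (0.98 each). Between the members themselves, the highest correlation was that of Nrp1 with Angpt2 (0.96), while Kdr and Flt1 had 0.54. These correlations are the highest of many and carry no test.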

How the data were processed

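Per the file headers, each library came with its own deposited table of raw counts over 24422 features. The submitters' processing notes name featureCounts 1.6.4, Subread, SAMtools and mm10. Annotation and strandedness are not given in the sources used here. Counts were analysed as deposited with edgeR 4.0.16 in R 4.3.3: filterByExpr left 16713 genes, TMM factors were 0.854 to 1.15, and 1 robust quasi-likelihood fit held all 12 libraries (common biological coefficient of variation 0.536, 8 residual degrees of freedom). All tests were 2-sided, with Benjamini-Hochberg adjustment over all genes tested, and a gene was called at an adjusted p under 0.05. DESeq2 1.42.0 and limma 3.58.1 (voom) were alternatives, with other scalings, no filter, marker covariates and each library left out. Log2 CPM values had 0.5 counts added. The code was tested on simulated data. Coordinates are GRCm38 from GENCODE M21, and promoters are RefSeq's.

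Groups came from the labels. Members, lists and tests were chosen with earlier results of these data known. Named genes are the 10 members, any called gene of the 5 pathway lists, the 2 genes of each list with the smallest F-test p, and for Vegfa, Kdr, Flt4, Angpt1 and Angpt2 the 3 genes of highest correlation.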

Additional observations from a re-analysis of the deposited data

How the results depend on the processing

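In all, 25 log2 fold changes of members were followed over 22 alternatives (550 values). They were chosen from these same data, by an unadjusted p under 0.05 or by no overlap of the groups. Those of Flt1, Kdr and Vegfa between HFD mCherry and each other group were also included. Of the 550 values, 519 kept their direction and their side of the threshold, 19 reversed and 12 newly passed it. No call could be lost, since the edgeR fit of all 12 libraries called 0 members. RLE size factors, library size only, limma-voom, no low-count filter, fits of 2 groups and the 8 libraries with Crisp1 called 0 members, as edgeR did. DESeq2 called 2 between diets (Flt1, Angpt1), and 1, Flt1, in HFD Tert against SD mCherry, in HFD TertCi against SD mCherry and over the 4 groups. With the epithelial score as covariate, 1 was called between diets (Flt1, 6.76% of all genes), 2 in HFD TertCi against SD mCherry (Flt1, Angpt2, 0.886%) and 2 over the 4 groups (4.98%). The endothelial covariate gave 0 between diets (0% of all genes), 1 in HFD Tert against HFD mCherry, 2 in HFD TertCi against HFD mCherry and 1 over the 4 groups (Flt1, 9.26%). Crisp1 detection as a covariate, added after seeing the data, gave 1 between diets (Flt1, 9.02%). Leaving out 1 library gave 0 to 1 member between diets and 0 to 1 over the 4 groups. Flt1 was called between diets without HFD mCherry 15 (log2 1.83, edgeR adjusted p = 0.0138, 12.2% of all genes called) and without HFD Tert 27 (1.63, 0.0289, 4%).

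Reversals between diets were those of Kdr (-0.094 with library size only, -0.18 with the endothelial covariate, and -0.16 to 0.38 with 1 library left out), of Vegfa (0.042 with the epithelial covariate, 0.29 with the endothelial covariate, 0.056 in the 8 libraries with Crisp1, and -0.24 to 0.067 with 1 library left out) and of Angpt2 (-0.081 with the endothelial covariate). The endothelial covariate also reversed Pgf (-0.040) and Kdr (-0.041) in HFD TertCi against HFD mCherry. Against SD mCherry it reversed Vegfa (0.013), Nrp1 (-0.48) and Angpt2 (-0.57) in HFD Tert, and Vegfa (0.090), Vegfc (-0.30), Nrp1 (-0.59) and Angpt2 (-0.46) in HFD TertCi. Flt1 in HFD TertCi against HFD mCherry ran from -0.40 to 0.12 with 1 library left out. The cause of these changes was not tested. Scaling by library size only moved the median of all genes by -0.20 between diets, by 0.10 in HFD TertCi against HFD mCherry and by -0.11 in HFD Tert against SD mCherry. No paired analysis was possible because no replicate number occurs in more than 1 group. Where an arm held 1 library less, the fit assumed a spread common to all groups.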
